A study of Homo sapiens with 12 samples.

Results

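The genes described here encode glycoproteins, proteoglycans and laminins of the extracellular matrix, with the hyaluronan synthases and hyaluronan receptor that belong to the same coat. They were listed by symbol, with earlier results of these data known. All 45 listed symbols were found among the 28395 genes of the count table. For description they were put into 5 groups by role: 11 adhesive and matricellular glycoproteins, 12 elastic-fibre and microfibril proteins, 5 secreted interstitial proteoglycans, 10 basement-membrane genes including the laminin chains, and 7 cell-surface proteoglycans and hyaluronan genes. In 41 of them enough reads were counted for a test; DCN, LUM, POSTN and MFAP5 did not reach the minimum and are given as read counts.

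RNA was sequenced from cultures of BEAS-2B, an established line derived from human airway lining that viral genes keep dividing, in 4 groups of 3 libraries. All cultures spent 24 h in medium free of serum and steroid. One group then received both agents, TGF-β1 at 40 pM for 24 h and dexamethasone at 30 nM for 4 h more; the other groups received TGF-β1 alone, dexamethasone alone or neither (control). The labels describe the 3 libraries of a group as biological triplicates of a single line, the carrier of the agents is not given in the sources used here, and the growth protocol names A549 lung adenocarcinoma cells where every other field names BEAS-2B.

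The matrix is the network of proteins and sugar-bearing proteoglycans that cells secrete and attach to. Fibronectin and its partners form the fibrils on which other proteins assemble, fibrillins, fibulins and elastin form elastic fibres, and laminins, nidogens, perlecan and agrin form the basement membrane beneath an epithelium. TGF-β1 signals through SMAD transcription factors and is known for raising matrix production in fibroblasts and epithelial cells, whereas dexamethasone is a synthetic glucocorticoid that acts through the glucocorticoid receptor.

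Levels are CPM, counts scaled to a common library size, given for replicates 1, 2 and 3 in that order or as mean ± SD with n = 3 libraries. Differences are on the log2 scale, each with a standard error (SE). They come from edgeR's quasi-likelihood test fitted to all 13469 genes with enough reads, with Benjamini-Hochberg adjustment over all of them, and a gene is said to have risen or fallen where the adjusted p was under 0.05. Libraries that carry the same replicate number deviated together, so the fit with the number as a block is given as well wherever it changed a call.

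Library totals ran from 5861591 to 19727235 counts, with at least 17968961 in each replicate 3 and at most 7008203 in the others. The treatment showed in its usual target genes: the SMAD targets SMAD7 and SKIL rose with TGF-β1 by 3.07 and 1.94, and the glucocorticoid receptor targets FKBP5, TSC22D3 and PER1 rose with dexamethasone alone by 3.90, 3.35 and 2.85 on the log2 scale. All 12 airway epithelial markers were detected, with summed levels of 3387 to 5572 CPM in TGF-β1 libraries and 2935 to 4287 CPM in control libraries; 3 rose and 4 fell. Of 8 fibroblast markers, COL6A3, PDGFRB and FAP rose with TGF-β1 and the summed level was 698 to 790 CPM in TGF-β1 libraries against 254 to 382 CPM in control libraries, while MEOX2 was at 0 in both groups and PDGFRA and COL3A1 averaged under 1 CPM in both. The 6 leukocyte markers summed to 12.4 to 21.5 CPM in TGF-β1 libraries and 18.3 to 21.1 CPM in control libraries, of which CD14 and CD68 were tested and CD14 fell, while PTPRC had no read in the TGF-β1 libraries and 3 in the control libraries. Endothelial markers summed to at most 13.0 CPM in these groups, and 6 transcripts abundant in A549 cells summed to 3.25 to 9.12 CPM in TGF-β1 libraries and 14.1 to 42.5 CPM in control libraries. Of the 4 fibroblast markers tested, THY1 was the most abundant (mean log2 CPM 8.7 over all libraries) and did not pass. With the replicate block all 4 rose. COL6A3, PDGFRB and FAP thus moved with the matrix genes, and the part of the fibroblast markers in the results was not tested.

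The matrix genes as a whole made up more of the RNA wherever TGF-β1 was given, mostly through a few adhesive glycoproteins. The 45 genes accounted for 4.61 to 5.83% of each library's counts where TGF-β1 was given and for 1.11 to 1.43% where it was not, and these ranges did not overlap. Their summed level was 57752 ± 8724 CPM with both agents, 55979 ± 7042 CPM with TGF-β1, 12403 ± 1596 CPM with dexamethasone and 11328 ± 1040 CPM in control cells. The adhesive glycoproteins, led by FN1, TGFBI and THBS1, summed to 47091 CPM with TGF-β1 and 5550 CPM in control cells, whereas the cell-surface genes were nearly level at 1168 CPM with TGF-β1 and 1062 CPM in control cells, as were the basement-membrane genes at 3213 and 3146 CPM. In whole-culture libraries such as these, more RNA per cell and more cells of a kind that makes it cannot be told apart.

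Against control, TGF-β1 alone raised 24 and lowered 6 of the 41 genes tested. Among all genes 32.8% passed the same test in either direction, 16.2% upwards and 16.6% downwards, against 73.2% of the matrix genes, 58.5% upwards and 14.6% downwards. The genes were listed with earlier results of these data known, so these shares are a description and not a test. The median log2 fold change was 0.86 over the matrix genes and -0.01 over all genes; 16 matrix genes rose at least 2-fold, 12 of them at least 4-fold, and 3 fell at least 2-fold. When library size was the only scaling, the all-gene median was -0.22 and the calls over all genes were 1251 up and 4332 down, against 2186 up and 2230 down with TMM scaling, so directions here are relative to the median gene. With the replicate block 29 matrix genes rose and 6 fell, against 24.6% of all genes upwards.

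**Figure D1:**
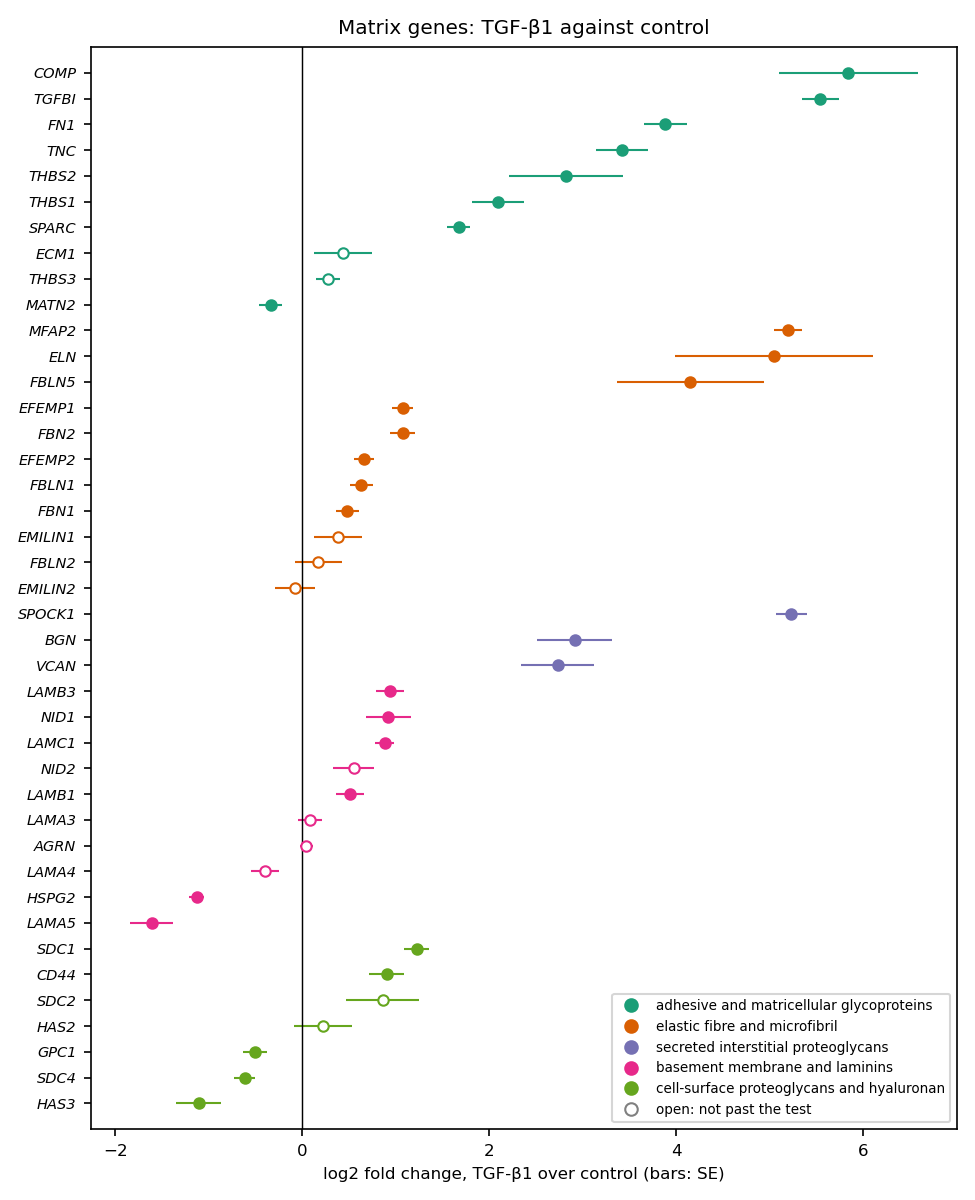
Log2 fold change of each of the 41 tested matrix genes, TGF-β1 over control (horizontal axis, bars ± SE), grouped and coloured by role; filled points passed the test and open points did not. The secreted proteoglycans and most adhesive and elastic-fibre genes lie right of 0, from COMP at 5.84 downwards, and LAMA5 at -1.61 lies farthest left.

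Of the adhesive and matricellular glycoproteins, which cells bind or which tune that binding, 7 of the 10 tested rose and 1 fell, with a median log2 fold change of 2.46. FN1, which encodes fibronectin, had 22923, 14577 and 21018 CPM in TGF-β1 libraries, against 1537, 1245 and 1193 CPM in control libraries. TGFBI, a collagen-binding adhesion protein named after its response to this factor, had 12571, 10627 and 9737 CPM in TGF-β1 libraries, against 267, 253 and 190 CPM in control libraries. Every TGF-β1 library lay far above every control library for both genes. FN1 rose by 3.88 (SE 0.23, adjusted p = 4.76e-08) and TGFBI by 5.54 (SE 0.20, adjusted p = 5.18e-10) on the log2 scale.

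TNC encodes tenascin-C, a matricellular protein that counters adhesion to fibronectin, and had 2157, 2265 and 1567 CPM in TGF-β1 libraries, against 178, 249 and 134 CPM in control libraries. It rose by 3.42 (SE 0.28, adjusted p = 4.02e-06), with no overlap between the groups. THBS2, a thrombospondin, had 168, 53.5 and 198 CPM in TGF-β1 libraries, against 29, 12.7 and 18.6 CPM in control libraries. Replicate 2 was low in both groups but the groups stayed apart, and the rise was 2.82 (SE 0.61, adjusted p = 0.00601), a call lost with all libraries numbered 1 or all numbered 3 left out (adjusted p = 0.054 and 0.09). COMP, a thrombospondin-family protein best known from cartilage, had 15.6, 4.64 and 12.4 CPM in TGF-β1 libraries, against 0.152, 0.310 and 0.145 CPM in control libraries. Its rise of 5.84 (SE 0.74, adjusted p = 7.94e-05) was the largest of the 41 genes, from a level close to 0.

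THBS1, a thrombospondin that activates latent TGF-β, averaged 10387 ± 953 CPM with TGF-β1 and 2441 ± 870 CPM in control cells, a rise of 2.09 (SE 0.28). SPARC, a collagen-binding matricellular protein, averaged 3975 ± 423 CPM with TGF-β1 and 1253 ± 130 CPM in control cells, a rise of 1.67 (SE 0.12). MATN2, the matrix adaptor matrilin-2, had 22.1, 20.3 and 25.3 CPM in TGF-β1 libraries, against 29.6, 25.6 and 31.0 CPM in control libraries. The groups did not overlap, by a margin of less than 1 CPM, and the fall of 0.34 on the log2 scale (SE 0.12, adjusted p = 0.0478) was lost in DESeq2 (adjusted p = 0.0771) and with no filter on low counts (adjusted p = 0.0958). It was also lost on leaving out any one of 8 libraries (control 1 or 3, TGF-β1 1 or 2, dexamethasone 1, 2 or 3, or both agents 2), with adjusted p of 0.0536 to 0.169. With all libraries numbered 1, 2 or 3 left out it was lost each time (adjusted p = 0.249, 0.0972 and 0.0869). ECM1, a matrix scaffold protein, and THBS3 did not pass (0.43, SE 0.31, adjusted p = 0.320 and 0.27, SE 0.13, adjusted p = 0.116) but did with the replicate block (adjusted p = 0.000485 and 0.0117).

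The elastic-fibre and microfibril genes moved upwards only among those that passed: 8 of 11 rose and none fell, with a median of 0.66. MFAP2, which encodes a small glycoprotein bound to fibrillin microfibrils, had 76.4, 75.9 and 82.3 CPM in TGF-β1 libraries, against 2.58, 2.64 and 1.74 CPM in control libraries. The TGF-β1 libraries agreed to within a few CPM, and the rise was 5.19 (SE 0.15, adjusted p = 1.82e-10). ELN, the gene of elastin itself, had 38.5, 3.25 and 46.4 CPM in TGF-β1 libraries, against 0.910, 0.776 and 0.966 CPM in control libraries. FBLN5, the fibulin that tethers elastin to microfibrils, had 68.9, 11.0 and 85.7 CPM in TGF-β1 libraries, against 2.58, 1.71 and 4.11 CPM in control libraries. In both genes replicate 2 of the TGF-β1 libraries was several-fold below the others yet above all controls. ELN rose by 5.04 (SE 1.06, adjusted p = 0.00541) and FBLN5 by 4.15 (SE 0.79, adjusted p = 0.00304). Both calls were lost with all libraries numbered 1 or all numbered 3 left out, at adjusted p of 0.0645 and 0.117 for ELN and 0.0556 and 0.0508 for FBLN5.

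The other microfibril genes changed less. FBN2, a fibrillin best known from development, averaged 303 ± 40.7 CPM with TGF-β1 and 144 ± 11.8 CPM in control cells, a rise of 1.07. FBN1, the main adult fibrillin, averaged 652 ± 99.5 CPM with TGF-β1 and 468 ± 41.8 CPM in control cells, a rise of 0.48. The fibulin-family genes EFEMP1, EFEMP2 and FBLN1 rose by 1.07, 0.66 and 0.63. Without the libraries numbered 1 or those numbered 3 FBN1 was lost (adjusted p = 0.0895 and 0.0706), as was FBLN1 without those numbered 1 (adjusted p = 0.0851). EMILIN1 and EMILIN2, glycoproteins of the elastin surface, and FBLN2 did not pass, with 0.38 (SE 0.26), -0.08 (SE 0.21) and 0.17 (SE 0.25); FBLN2 passed with the replicate block (0.18, adjusted p = 0.0433). MFAP5, a relative of MFAP2, was too low for the test. It had 16 reads over the TGF-β1 libraries and 2 over the control libraries, a ratio of 9 with a 95% exact interval of 2.12 to 80.7 that covers counting error only.

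Of the secreted proteoglycans, the 3 that were tested all rose. SPOCK1, which encodes the calcium-binding proteoglycan testican, had 546, 564 and 536 CPM in TGF-β1 libraries, against 17.3, 14.3 and 12.9 CPM in control libraries. BGN, the small leucine-rich proteoglycan biglycan, had 1543, 1034 and 1676 CPM in TGF-β1 libraries, against 229, 114 and 221 CPM in control libraries. For neither gene did the groups overlap, and SPOCK1 rose by 5.23 (SE 0.17, adjusted p = 4.10e-10) and BGN by 2.91 (SE 0.40, adjusted p = 0.000313). VCAN, the large hyaluronan-binding proteoglycan versican, averaged 406 ± 129 CPM with TGF-β1 and 62.2 ± 29.2 CPM in control cells and rose by 2.73 (SE 0.39, adjusted p = 0.000428).

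The remaining secreted proteins typical of fibroblast matrix were close to absent. DCN, the gene of decorin, had 2 reads over the TGF-β1 libraries and 3 over the control libraries, and LUM, the gene of lumican, had 3 and 2 reads in the same order. POSTN, which encodes the TGFBI relative periostin, had 15 reads over the TGF-β1 libraries and 14 over the control libraries, a ratio of 1.21 with a 95% exact interval of 0.543 to 2.70. A difference in these 3 genes was not detectable at this depth, although their relatives BGN and TGFBI were among the most abundant and the most changed.

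**Figure D2:**
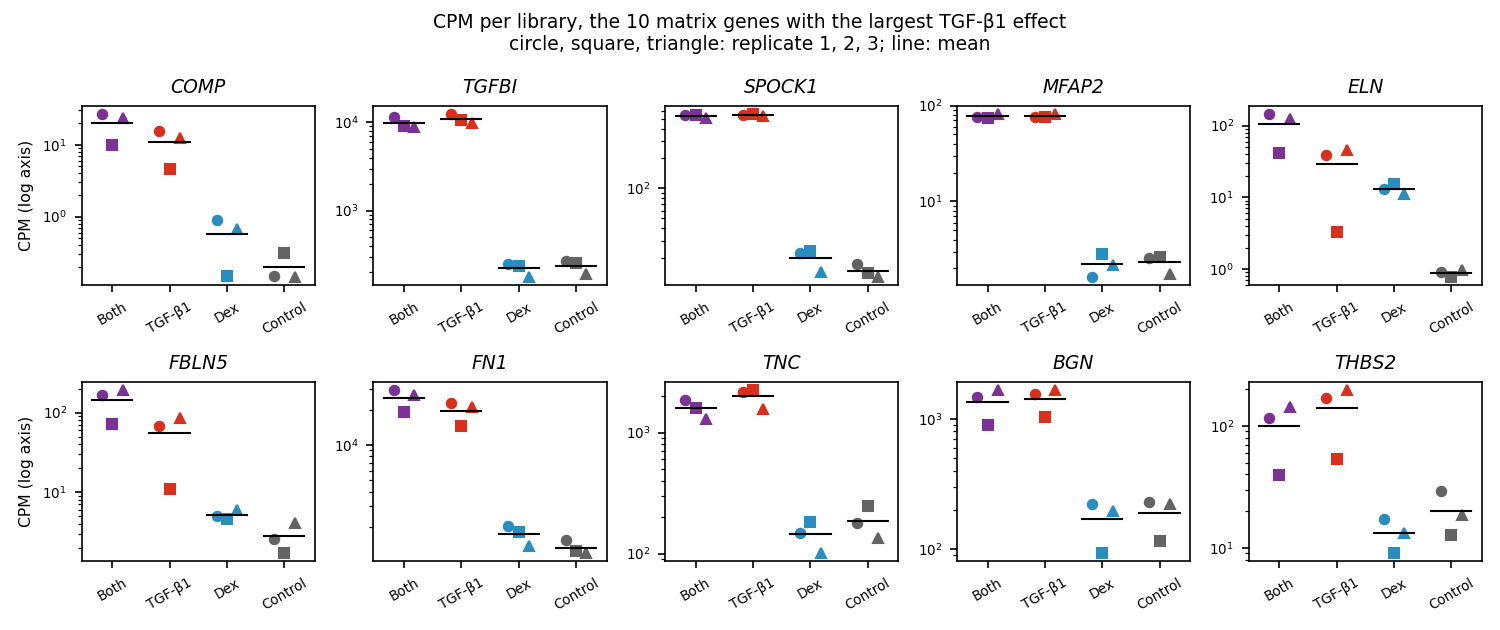
CPM of the 10 matrix genes with the largest difference between TGF-β1 and control, 1 panel per gene with a log axis; from left to right both agents, TGF-β1, dexamethasone and control, with circle, square and triangle for replicates 1, 2 and 3 and a line at the mean. In all 10 panels the 6 libraries with TGF-β1 are above the control libraries, and the square of replicate 2 sits low for COMP, ELN, FBLN5 and THBS2, as in the 3.25 CPM of ELN.

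Promoter sequence is given for 4 genes that rose more than 4-fold and for 2 laminin-network genes that fell, to set the letters of genes that moved together, and of genes that moved apart, beside their values. The 250 bases before the gene start were read from RefSeq (GRCh38.p14), where 34 of the 45 genes had an entry. They lie at chr19:18791306-18791555 (minus strand) for COMP, chr5:136028738-136028987 (plus strand) for TGFBI, chr1:16981584-16981833 (minus strand) for MFAP2, chr6:169253847-169254096 (minus strand) for THBS2, chr20:62367313-62367562 (minus strand) for LAMA5 and chr1:21937311-21937560 (minus strand) for HSPG2. Capitals mark CAGAC or its reverse complement GTCTG (the core letters that SMAD proteins bind), TGANTCA (AP-1) and TATAAA (the TATA box), searched on both strands.
COMP: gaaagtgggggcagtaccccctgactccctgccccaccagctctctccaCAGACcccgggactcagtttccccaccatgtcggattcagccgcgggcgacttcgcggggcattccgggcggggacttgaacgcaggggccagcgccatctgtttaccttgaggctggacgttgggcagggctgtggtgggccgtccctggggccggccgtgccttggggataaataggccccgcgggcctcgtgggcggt
TGFBI: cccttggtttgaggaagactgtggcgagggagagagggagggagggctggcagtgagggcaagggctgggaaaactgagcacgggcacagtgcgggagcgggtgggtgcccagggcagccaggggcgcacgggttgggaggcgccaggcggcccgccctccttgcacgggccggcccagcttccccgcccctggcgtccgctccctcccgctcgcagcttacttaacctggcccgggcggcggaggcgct
MFAP2: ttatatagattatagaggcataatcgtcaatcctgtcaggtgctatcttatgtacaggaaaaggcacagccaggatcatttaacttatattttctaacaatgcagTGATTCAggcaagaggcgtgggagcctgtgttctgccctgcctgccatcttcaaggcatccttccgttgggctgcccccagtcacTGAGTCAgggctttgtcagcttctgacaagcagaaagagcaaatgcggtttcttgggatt
THBS2: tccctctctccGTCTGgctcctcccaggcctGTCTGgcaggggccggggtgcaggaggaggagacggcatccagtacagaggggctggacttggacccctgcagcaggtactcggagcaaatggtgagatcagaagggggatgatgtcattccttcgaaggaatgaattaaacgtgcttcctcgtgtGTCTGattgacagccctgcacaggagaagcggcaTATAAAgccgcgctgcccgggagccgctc
LAMA5: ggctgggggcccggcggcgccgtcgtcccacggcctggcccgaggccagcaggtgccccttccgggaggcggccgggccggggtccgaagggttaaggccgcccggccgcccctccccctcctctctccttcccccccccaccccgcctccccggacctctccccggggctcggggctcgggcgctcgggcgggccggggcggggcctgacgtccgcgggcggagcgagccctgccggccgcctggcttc
HSPG2: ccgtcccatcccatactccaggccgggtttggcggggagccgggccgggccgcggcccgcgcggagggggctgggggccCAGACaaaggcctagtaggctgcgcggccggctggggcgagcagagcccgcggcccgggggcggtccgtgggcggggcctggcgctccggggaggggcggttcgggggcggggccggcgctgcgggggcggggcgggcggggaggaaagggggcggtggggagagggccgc
None of these letters is found in all 6 stretches. THBS2 holds 3 CAGAC matches and a TATAAA, COMP and HSPG2 hold 1 CAGAC match each, MFAP2 holds 2 TGANTCA matches, and TGFBI and LAMA5 hold none of these letters. CAGAC was found in 14 of the 34 matrix promoters (41.2%) and in 37.8% of all 27305 promoters of the same length, TGANTCA in 5 of 34 (14.7%) and 6.60% of all, TATAAA in 3 of 34 (8.82%) and 11.1% of all, and the SP1 letters GGGCGG in 28 of 34 (82.4%) and 42.3% of all, or 56% of the 15842 promoters of protein-coding genes. The paired SMAD letters GTCTAGAC had no match in the 34, against 0.176% of all promoters, nor had the palindromic glucocorticoid response element, against 0.33% of all. A match is a description of the letters and not of binding.

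Basement-membrane genes moved in both directions under TGF-β1: of 10 tested, 4 rose, 2 fell and 4 did not pass, with a median of 0.30 and a nearly level sum of 3213 ± 258 CPM with TGF-β1 and 3146 ± 116 CPM in control cells. LAMA5, the laminin alpha chain widespread in adult epithelia, had 219, 245 and 194 CPM in TGF-β1 libraries, against 619, 805 and 588 CPM in control libraries. HSPG2, which encodes the heparan sulphate proteoglycan perlecan, had 151, 144 and 163 CPM in TGF-β1 libraries, against 347, 299 and 359 CPM in control libraries. All TGF-β1 libraries were below all control libraries in both. LAMA5 fell by 1.61 on the log2 scale (SE 0.23, adjusted p = 0.000223) and HSPG2 fell by 1.13 (SE 0.08, adjusted p = 2.23e-07). LAMA5 overlaps ADRM1 on the opposite strand (168 CPM on average), and with a library kit that does not keep the strand the reads of overlapping genes cannot be told apart.

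Other laminin chains rose. LAMB3, the beta chain of the laminin that anchors epithelial cells at hemidesmosomes, had 157, 151 and 134 CPM in TGF-β1 libraries, against 72.9, 96.1 and 62.5 CPM in control libraries, and rose by 0.94 (SE 0.15, adjusted p = 0.000279). LAMC1, the gamma chain shared by most laminins, averaged 943 ± 120 CPM with TGF-β1 and 514 ± 15.3 CPM in control cells, a rise of 0.88 (SE 0.10). LAMB1, the most widespread beta chain, had 645, 469 and 697 CPM in TGF-β1 libraries, against 437, 416 and 417 CPM in control libraries. These groups stood apart, with replicate 2 nearest to the controls. The rise of 0.51 (SE 0.15, adjusted p = 0.0183) was lost without control replicate 3, TGF-β1 replicate 1 or TGF-β1 replicate 3 (adjusted p = 0.0569, 0.0670 and 0.0819) and on scaling by library size alone (0.30, adjusted p = 0.0869) or with no filter on low counts (adjusted p = 0.0503). It was also lost with all libraries numbered 1 or all numbered 3 left out (adjusted p = 0.187 and 0.177). LAMB1 overlaps DLD on the opposite strand (77.8 CPM), and NID2, EFEMP2 and THBS3 likewise overlap RTRAF, MUS81 and MTX1 (65.6, 59 and 17.5 CPM).

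The nidogens join laminin to collagen IV. NID1 averaged 64.0 ± 17.1 CPM with TGF-β1 and 34.0 ± 8.58 CPM in control cells and rose by 0.92 (SE 0.24, adjusted p = 0.0118), a call lost without TGF-β1 replicate 3 (adjusted p = 0.0554) and with no filter on low counts (adjusted p = 0.0531). The NID1 call was also lost with all libraries numbered 1 or all numbered 3 left out (adjusted p = 0.0637 and 0.179). NID2 averaged 13.2 ± 1.58 CPM with TGF-β1 and 9.24 ± 1.98 CPM in control cells and did not pass (0.55, SE 0.22, adjusted p = 0.0769) except with the replicate block (0.61, adjusted p = 0.00321) or without control replicate 1 or both-agents replicate 2 (adjusted p = 0.0416 and 0.0401). The alpha chain LAMA4, known from vessel and mesenchymal basement membranes, had 107 to 135 CPM in TGF-β1 libraries, against 144 to 195 CPM in control libraries, and missed the threshold (-0.40, SE 0.15, adjusted p = 0.0578), which it crossed on leaving out control 3, dexamethasone 3, or both-agents 1 or 3 (adjusted p = 0.0437 to 0.05) and on scaling by library size (-0.60, adjusted p = 0.00804). LAMA3, the alpha chain of the hemidesmosomal laminin, and AGRN, the proteoglycan agrin, differed by 0.08 (SE 0.13) and 0.04 (SE 0.07), and neither passed. AGRN was the steadiest gene here, with 824, 816 and 835 CPM in TGF-β1 libraries, against 811, 799 and 803 CPM in control libraries.

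Per kilobase of exon, which lets genes be compared, the laminin chains changed their order. In TGF-β1 cells the levels were 120 ± 15.2 CPM per kb for LAMC1, 97.1 ± 19.2 for LAMB1, 32.8 ± 2.71 for LAMB3, 19.2 ± 2.23 for LAMA5, 15.6 ± 1.85 for LAMA4 and 11.1 ± 2.09 for LAMA3. In control cells they were 68.1 ± 1.95 CPM per kb for LAMB1, 65.2 ± 1.94 for LAMC1, 58.7 ± 10.3 for LAMA5, 20.7 ± 3.70 for LAMA4, 17.2 ± 3.83 for LAMB3 and 10.5 ± 0.449 for LAMA3. LAMA5 followed LAMB1 and LAMC1 in control cells, below both by less than its own SD, and stood between LAMB3 and LAMA4 in TGF-β1 cells. Over all 45 genes the highest levels per kb in TGF-β1 cells were those of TGFBI (3819 ± 504), FN1 (2145 ± 481), THBS1 (1336), SPARC (1074 ± 114) and BGN (590 ± 141), and in control cells those of SPARC (338 ± 35), THBS1 (314 ± 112) and FN1 (146 ± 20.4). TGFBI was at 82.5 ± 14.3 CPM per kb in control cells.

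**Figure D3:**
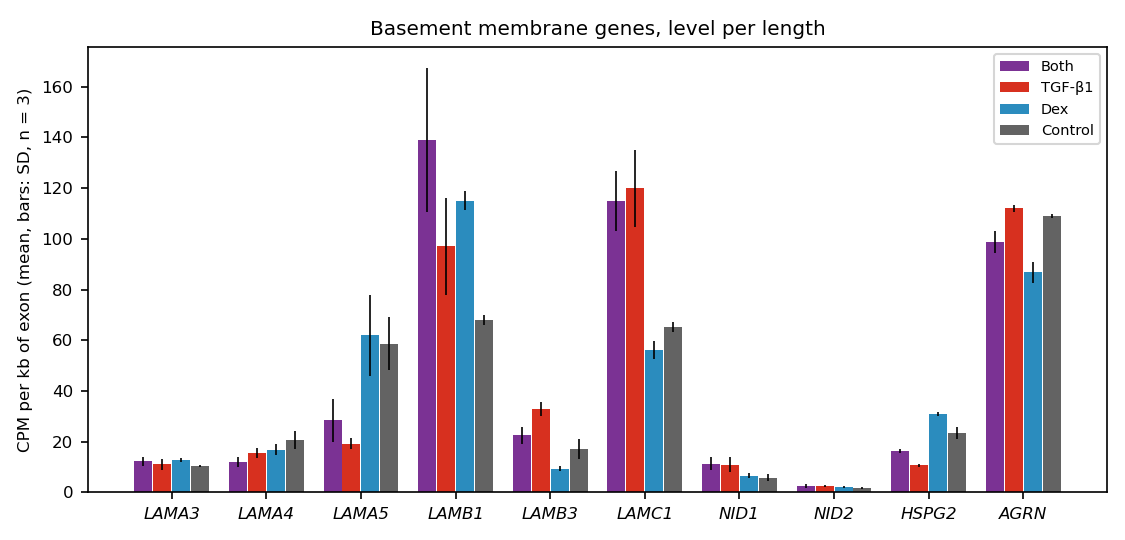
Level of the 10 basement-membrane genes in CPM per kb of exon, bars for the mean and lines for the SD of 3 libraries; from left to right in each set both agents, TGF-β1, dexamethasone and control. LAMA5 drops to 19.2 with TGF-β1 against 58.7 in control, LAMC1 stands at 120 against 65.2, and HSPG2 is highest with dexamethasone alone.

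At the cell surface, 2 of 7 genes rose and 3 fell. SDC1, the main epithelial syndecan, averaged 353 ± 50.8 CPM with TGF-β1 and 152 ± 16.3 CPM in control cells, a rise of 1.22 (SE 0.13). CD44, the hyaluronan receptor, averaged 302 ± 35.6 CPM with TGF-β1 and 162 ± 38.3 CPM in control cells, a rise of 0.90 (SE 0.19). SDC4, a syndecan of focal adhesions, had 151, 171 and 145 CPM in TGF-β1 libraries, against 259, 209 and 246 CPM in control libraries. GPC1, a lipid-anchored heparan sulphate proteoglycan, had 347, 314 and 385 CPM in TGF-β1 libraries, against 542, 392 and 558 CPM in control libraries. HAS3, a hyaluronan synthase, had 4.03, 3.40 and 4.04 CPM in TGF-β1 libraries, against 10.6, 6.36 and 8.02 CPM in control libraries. None of these 3 overlapped between groups, although the highest TGF-β1 library of GPC1 lay just below the lowest control library. SDC4 fell by 0.62 (SE 0.11, adjusted p = 0.000527), GPC1 fell by 0.51 (SE 0.13, adjusted p = 0.00762) and HAS3 fell by 1.11 (SE 0.24, adjusted p = 0.00250) on the log2 scale. With the libraries numbered 1 left out the calls of GPC1, CD44 and HAS3 were lost (adjusted p = 0.154, 0.0938 and 0.0568), and with those numbered 3 left out that of GPC1 (adjusted p = 0.056). HAS3 overlaps CHTF8 on the opposite strand, which at 108 CPM is far more abundant. SDC2 stayed under 4 CPM in every library and HAS2 under 7; they did not pass, with 0.86 (SE 0.39, adjusted p = 0.112) and 0.22 (SE 0.31). SDC2 passed with the replicate block (adjusted p = 0.0243) and without TGF-β1 replicate 2 (1.10, adjusted p = 0.0485).

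Genes that make, modify or bind the same matrix moved with it to different degrees. Over all genes 16.2% rose and 16.6% fell with TGF-β1 against control. Of 37 tested genes of glycosaminoglycan synthesis and turnover, 19 rose and 1 fell, with a median of 0.34, among them the chondroitin sulphotransferase CHST11 (3.25, SE 0.21), the hyaluronan-degrading CEMIP (2.37, SE 0.25) and the heparan sulphate sulphotransferase NDST1 (1.71, SE 0.11). Of 11 genes for elastic-fibre assembly and latent TGF-β binding, 9 rose and none fell, with a median of 0.94, among them LTBP2 (3.83, SE 0.27), the crosslinking transglutaminase TGM2 (3.70, SE 0.39) and LTBP1 (2.84, SE 0.25). Of 15 further laminin and basement-membrane genes, 8 rose and 4 fell, with a median of 0.91. COL4A1 and COL4A2, the main collagen IV chains, rose by 4.17 (SE 0.33) and 3.10 (SE 0.28), whereas COL4A6, the dystroglycan gene DAG1 and COL4A5 fell by 0.90, 0.65 and 0.52.

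Of 27 other matrix glycoproteins, 7 rose and 6 fell, with a median of 0.02; MFAP4, IGFBP7 and AEBP1 rose by 3.42, 3.07 and 2.99, and MMRN2, SVEP1 and the vitronectin gene VTN fell by 1.77, 1.65 and 1.49 on the log2 scale. Of 13 other proteoglycans, 5 rose and 6 fell, with a median of -0.50. TSKU, CSPG4 and GPC2 rose by 1.42, 1.21 and 1.07, and the TGF-β co-receptor TGFBR3, PODN and SRGN fell by 2.07, 1.29 and 0.50. Of 19 matrix receptors, 10 rose and 3 fell, with a median of 0.71: the collagen-binding integrin ITGA11 rose by 6.97 (SE 0.39), the fibronectin receptor chains ITGA5 and ITGAV by 2.14 and 1.78, and ITGB8, the hyaluronan receptor HMMR and ITGA10 fell by 2.03, 0.80 and 0.72.

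Dexamethasone alone changed fewer matrix genes than TGF-β1 did. Without the replicate block most of them were in the basement membrane or at the cell surface. Against control, 3 of the 41 rose and 4 fell, 17.1% in all, where 10.4% of all genes passed, 5.54% upwards and 4.90% downwards. With the replicate block 7 rose and 7 fell, against 22.2% of all genes, and these calls were spread over every role group. DESeq2 called 8, against 1498 of all genes. The median log2 fold change was 0.07 over the matrix genes and 0.00 over all genes. With 1 replicate number left out of all groups, the calls of FBLN1, LAMB1, HSPG2, AGRN and HAS3 were each lost at least once (adjusted p = 0.0684 to 0.395), and those of LAMB3 and SDC4 were not.

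LAMB1 had 696, 740 and 705 CPM in dexamethasone libraries, against 437, 416 and 417 CPM in control libraries, and rose by 0.75 (SE 0.15, adjusted p = 0.00418). HSPG2 had 441, 458 and 434 CPM in dexamethasone libraries, against 347, 299 and 359 CPM in control libraries, and rose by 0.41 (SE 0.08, adjusted p = 0.00374). FBLN1 had 310, 348 and 289 CPM in dexamethasone libraries, against 214, 253 and 225 CPM in control libraries. All dexamethasone libraries were above all control libraries for these 3 genes. The FBLN1 rise of 0.45 (SE 0.12, adjusted p = 0.0297) was lost with the replicate block (adjusted p = 0.0873) and on leaving out control 1 or 3 or dexamethasone 1 or 2 (adjusted p = 0.0725 to 0.132).

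LAMB3 had 46.7, 41.6 and 37.7 CPM in dexamethasone libraries, against 72.9, 96.1 and 62.5 CPM in control libraries, and fell by 0.87 on the log2 scale (SE 0.15, adjusted p = 0.00151). AGRN had 671, 611 and 643 CPM in dexamethasone libraries, against 811, 799 and 803 CPM in control libraries, and fell by 0.33 (SE 0.07, adjusted p = 0.00596). SDC4 had 174, 133 and 162 CPM in dexamethasone libraries, against 259, 209 and 246 CPM in control libraries, and fell by 0.61 (SE 0.11, adjusted p = 0.00149). In these 3 genes the groups stood apart by a clear margin. HAS3 had 3.99, 3.42 and 5.65 CPM in dexamethasone libraries, against 10.6, 6.36 and 8.02 CPM in control libraries. Its groups did not overlap either, but the fall of 0.87 (SE 0.23, adjusted p = 0.0232) was lost on leaving out control 1 or 3 or dexamethasone 1 or 2 (adjusted p = 0.0535 to 0.1).

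ELN was the gene with the largest difference that did not pass. It had 12.9, 15.3 and 11.2 CPM in dexamethasone libraries, against 0.910, 0.776 and 0.966 CPM in control libraries, a difference of 3.80 (SE 1.14, adjusted p = 0.0698). The 3 dexamethasone libraries agreed closely and all lay more than 10-fold above the controls. The test uses 1 spread for all 4 groups, and among the TGF-β1 libraries ELN ran from 3.25 to 46.4 CPM. ELN passed with the replicate block (3.87, adjusted p = 0.0478), in DESeq2 (adjusted p = 9.92e-05) and without TGF-β1 replicate 2 or both-agents replicate 2 (adjusted p = 0.00408 and 0.0467). With the replicate block COMP (1.71, adjusted p = 0.0309), THBS3 (0.37, adjusted p = 0.00176), FBN1 (0.20, adjusted p = 0.0124) and GPC1 (0.40, adjusted p = 6.24e-05) also passed upwards, and FBLN2 (-0.22, adjusted p = 0.0388), VCAN (-0.77, adjusted p = 0.0473) and CD44 (-0.46, adjusted p = 0.0341) downwards. GPC1 had 690, 566 and 707 CPM in dexamethasone libraries, against 542, 392 and 558 CPM in control libraries, and also passed without dexamethasone replicate 2 (0.48, adjusted p = 0.0389). SPOCK1 passed without dexamethasone replicate 3 (0.66, adjusted p = 0.00283).

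In the further lists, dexamethasone alone raised 1 and lowered 8 of the 37 genes of glycosaminoglycan synthesis and turnover, and raised 5 and lowered none of the 13 other proteoglycans and 5 and none of the 27 other matrix glycoproteins. It raised 4 and lowered 3 of the 19 matrix receptors, raised 2 and lowered 1 of the 11 genes of elastic-fibre assembly, and raised 1 and lowered none of the 15 other basement-membrane genes. With both agents against TGF-β1 alone the counts in the same sequence of lists were 2 up and 4 down, 5 and 0, 3 and 0, 3 and 1, 1 and 0, and 0 and 1. Over all genes 5.54% rose and 4.90% fell with dexamethasone alone, and 5.09% and 3.01% with both agents against TGF-β1 alone.

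Dexamethasone added after TGF-β1 changed few matrix genes, and of the 10 with the largest TGF-β1 difference none passed without the replicate block, while COMP, FBLN5 and ELN passed upwards with it. With both agents against TGF-β1 alone, 3 of the 41 rose and 2 fell, 12.2% in all. Over all genes 8.11% passed, 5.09% upwards and 3.01% downwards. With the replicate block 7 rose and 4 fell, against 17.5% of all genes, 9.47% upwards. DESeq2 called 6, against 1168 of all genes, again over its own set of genes. FN1, TGFBI, SPOCK1 and MFAP2 differed by 0.37 (SE 0.20), -0.15 (SE 0.16), -0.03 (SE 0.13) and -0.01 (SE 0.11), and none of these passed. FN1 averaged 25292 ± 5540 CPM with both agents and 19506 ± 4374 CPM with TGF-β1, TGFBI 9884 ± 1399 CPM with both agents and 10978 ± 1449 CPM with TGF-β1.

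HSPG2 had 228, 249 and 231 CPM with both agents, against 151, 144 and 163 CPM with TGF-β1 alone, and rose by 0.62 (SE 0.08, adjusted p = 0.000153). GPC1 had 539, 521 and 579 CPM with both agents, against 347, 314 and 385 CPM with TGF-β1 alone, and rose by 0.65 (SE 0.13, adjusted p = 0.00514). FBLN1 had 502, 482 and 550 CPM with both agents, against 371, 282 and 413 CPM with TGF-β1 alone. All combined libraries were above all TGF-β1 libraries in these 3 genes. The FBLN1 rise of 0.52 (SE 0.12, adjusted p = 0.0147) was lost with the replicate block (adjusted p = 0.0596) and without both-agents replicate 3 (adjusted p = 0.0642).

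LAMB3 had 119, 95.2 and 90.7 CPM with both agents, against 157, 151 and 134 CPM with TGF-β1 alone, and fell by 0.54 on the log2 scale (SE 0.15, adjusted p = 0.0385). SDC4 had 119, 110 and 109 CPM with both agents, against 151, 171 and 145 CPM with TGF-β1 alone, and fell by 0.46 (SE 0.11, adjusted p = 0.0159). The groups did not overlap in either gene. The LAMB3 call was lost on leaving out any one of 7 libraries (control 1, TGF-β1 1 or 2, dexamethasone 1 or 2, both agents 2 or 3; adjusted p = 0.0513 to 0.154), and that of SDC4 without TGF-β1 2 or both agents 2 or 3 (adjusted p = 0.0561 to 0.0649). LAMB1, at 920, 668 and 1007 CPM with both agents against 645, 469 and 697 CPM with TGF-β1 alone, was just short of the threshold (0.52, SE 0.15, adjusted p = 0.0501) and passed in DESeq2 (adjusted p = 0.0145), with its size factors (adjusted p = 0.0473), on scaling by library size (adjusted p = 0.0445) and without TGF-β1 3 or both agents 2 (adjusted p = 0.0317 and 0.00502). With 1 replicate number left out of all groups, the calls of GPC1, FBLN1, LAMB3 and SDC4 were each lost at least once (adjusted p = 0.0904 to 0.214), and that of HSPG2 was not.

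ELN, FBLN5, COMP and LAMA5 passed upwards with the replicate block but not without it. ELN had 147, 41.4 and 125 CPM with both agents, against 38.5, 3.25 and 46.4 CPM with TGF-β1 alone (1.79 with the block, adjusted p = 0.0424). FBLN5 had 166, 71.2 and 195 CPM with both agents, against 68.9, 11.0 and 85.7 CPM with TGF-β1 alone (1.45, adjusted p = 0.00973). COMP had 27.1, 9.92 and 23.3 CPM with both agents, against 15.6, 4.64 and 12.4 CPM with TGF-β1 alone (0.90, adjusted p = 3.76e-05). In each of these genes the combined library exceeded the TGF-β1 library of the same number, while the groups as a whole overlapped. LAMA5 had 269, 435 and 268 CPM with both agents, against 219, 245 and 194 CPM with TGF-β1 alone, without overlap (0.53 with the block, adjusted p = 0.000131). Without the block the adjusted p of ELN, FBLN5, COMP and LAMA5 were 0.183, 0.267, 0.268 and 0.202, and with all libraries numbered 2 left out they were 6.35e-06, 0.000148, 0.00781 and 0.0246. HAS2 (0.76, adjusted p = 0.0450) also passed upwards with the block, and AGRN (-0.18, adjusted p = 0.00928) and SDC1 (-0.22, adjusted p = 0.0367) downwards.

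**Figure D4:**
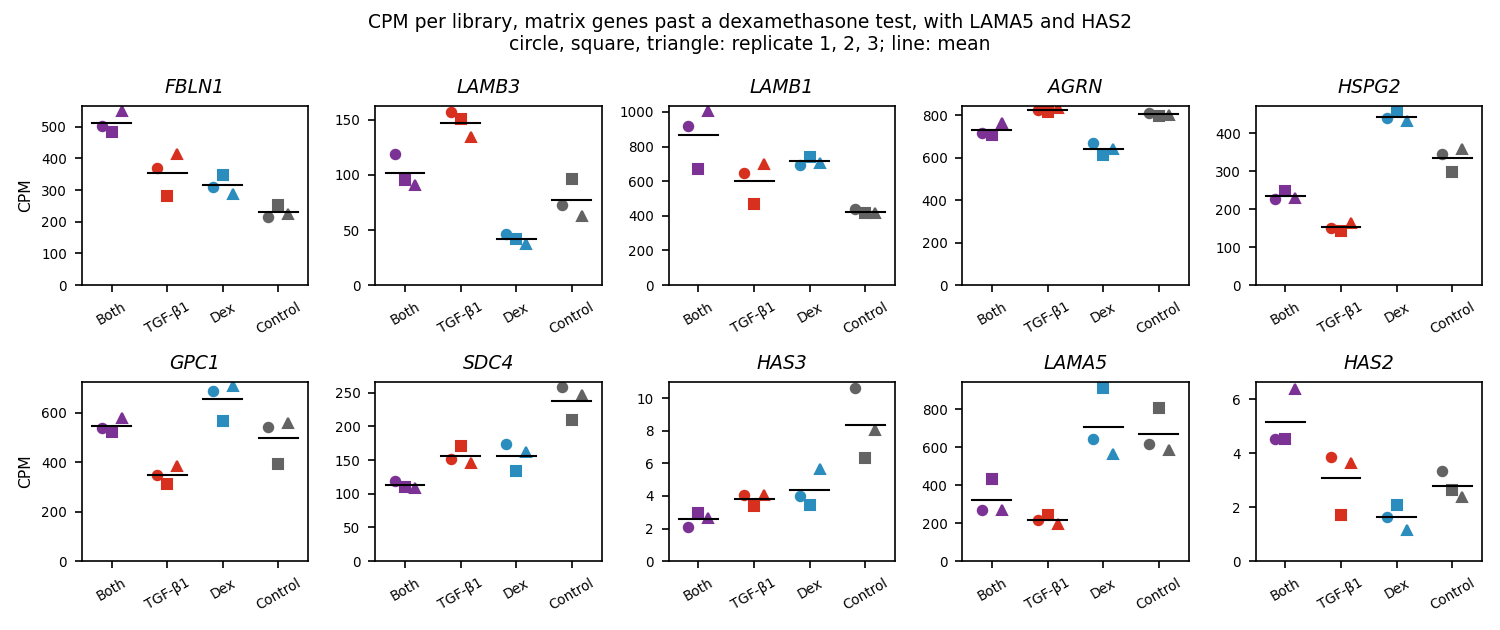
CPM per library, on axes from 0, of the matrix genes that passed a test of dexamethasone and of LAMA5 and HAS2; from left to right both agents, TGF-β1, dexamethasone and control, with circle, square and triangle for replicates 1, 2 and 3 and a line at the mean. SDC4 is lowest with both agents (109 to 119 CPM) and highest in control, and HSPG2 is higher with dexamethasone in each background.

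With dexamethasone present, TGF-β1 again moved most of the matrix genes. With both agents against dexamethasone alone, 23 of the 41 rose and 6 fell, 70.7% in all with a median of 0.81, where 32.3% of all genes passed, 15.9% upwards and 16.4% downwards (49.9% with the replicate block, against 28 matrix genes up and 6 down). The upward calls had 22 genes in common with those of TGF-β1 against control, 91.7% of those 24 and 95.7% of these 23, and the downward calls 5, HAS3, HSPG2, LAMA5, MATN2 and SDC4, 83.3% of each list. Over all genes the shared upward calls were 75.6% and 77.1% of the lists, and the shared downward calls 72.1% and 72.9%. Across the 41 genes, which are not independent of each other, the 2 sets of log2 fold changes had a Pearson r of 0.97, 40 had the same sign and 36 lay within 0.5 of each other. These comparisons have no library in common. Of the genes too low for the test, MFAP5 had 18 reads with both agents and 2 with dexamethasone alone, a ratio of 10.9 with a 95% exact interval of 2.61 to 97, and POSTN had 13 and 7 reads (2.25, 0.835 to 6.67) in the same order. DCN had 2 reads with both agents and 2 with dexamethasone, and LUM had 2 and 0.

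HAS2 and ELN lay farthest from equality. HAS2, a hyaluronan synthase, had 4.54, 4.52 and 6.39 CPM with both agents, against 1.63, 2.08 and 1.15 CPM with dexamethasone alone, and rose by 1.81 (SE 0.32, adjusted p = 0.000654), against 0.22 (SE 0.31) without dexamethasone. ELN rose by 3.03 (SE 0.72, adjusted p = 0.0107), against 5.04 without it; this call was lost without dexamethasone replicate 3 (adjusted p = 0.0576). FBN1 and LAMB1 did not pass in this background (0.25, adjusted p = 0.114 and 0.28, adjusted p = 0.177), nor did GPC1 (-0.26, adjusted p = 0.147), while LAMA4 fell by 0.47 (SE 0.15, adjusted p = 0.0300). The LAMA4 call was lost with the replicate block (adjusted p = 0.0680) and without dexamethasone 1 or 2 or both agents 1 or 2 (adjusted p = 0.0717 to 0.122). NID1 (0.81, adjusted p = 0.0218) was lost with no filter on low counts (adjusted p = 0.0869) and without dexamethasone 2 or 3 or both agents 1 or 3 (adjusted p = 0.0677 to 0.0908), and HAS3 (-0.82, adjusted p = 0.0266) without dexamethasone 3 or both agents 1 or 3 (adjusted p = 0.0757 to 0.213). Without 1 library, FBN1 and LAMB1 passed (both agents 2; adjusted p = 0.0428 and 0.0229), as did AGRN (dexamethasone 1; adjusted p = 0.0383), which also passed in DESeq2 and with its size factors (adjusted p = 0.00833 and 0.0427); GPC1 passed on scaling by library size (-0.46, adjusted p = 0.00828). With the replicate block ECM1, FBN1, FBLN2, NID2 and AGRN passed upwards (0.50, 0.25, 0.30, 0.39 and 0.19) and GPC1 downwards (-0.25). With 1 replicate number left out of all groups, the calls of THBS1, THBS2, MATN2, ELN, LAMA4, LAMA5, NID1, SDC4, HAS2 and HAS3 were each lost at least once (adjusted p = 0.0595 to 0.363).

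For the dexamethasone response the calls in common were fewer, FBLN1 and HSPG2 upwards (66.7% of each list) and LAMB3 and SDC4 downwards (50% of the 4 without TGF-β1 and 100% of the 2 with it). Over all genes the shares were 60.9% and 66.2% upwards and 40.6% and 66% downwards. Under the block COMP, ELN, GPC1 and HSPG2 were shared upwards and AGRN, LAMB3 and SDC4 downwards, and FBLN1 was not. Of the 41 genes 31 had the same sign in the 2 backgrounds and 36 had effects within 0.5 of each other. The Pearson r was 0.783 over genes that are not independent. For each gene the difference between backgrounds is the same quantity as for the TGF-β1 response, and the dexamethasone effects cover a smaller range.

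**Figure D5:**
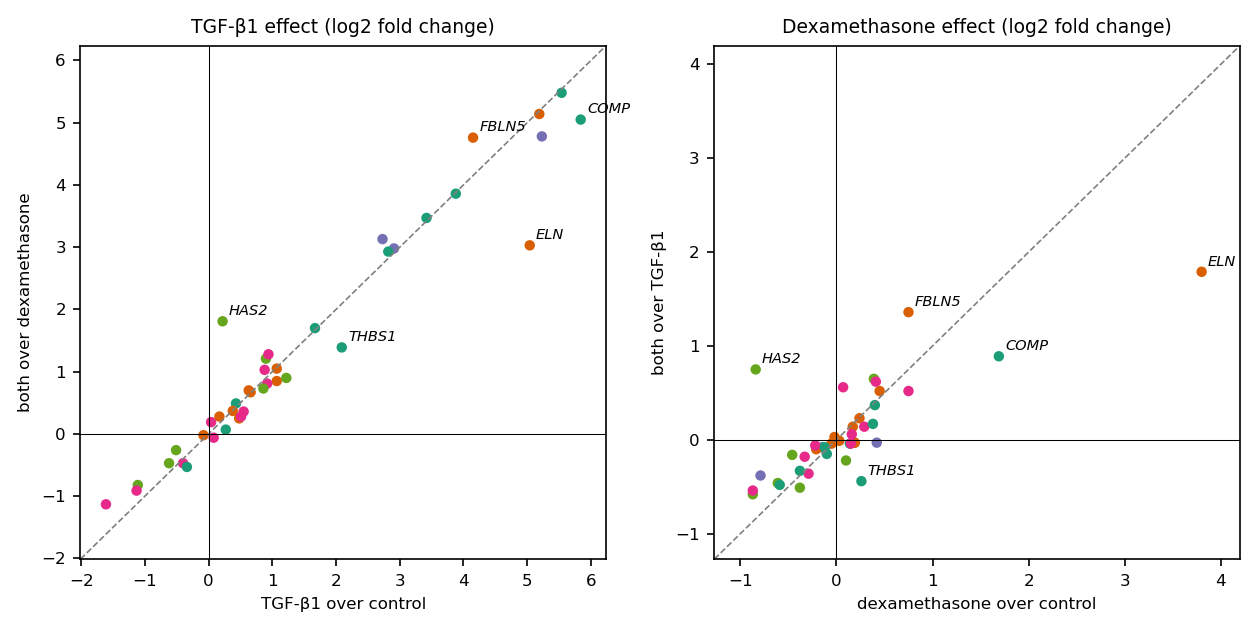
Log2 fold changes of the 41 tested matrix genes, coloured by role as in the plot of TGF-β1 effects. Left, TGF-β1 effect with dexamethasone present (vertical axis) and without it (horizontal axis); right, dexamethasone effect with TGF-β1 present and without it; the dashed line marks equality. Most points lie near the line at left (r 0.97), with HAS2 above it and ELN below. Each gene's vertical offset from the line is the same quantity at right. The effects cover a smaller range there (r 0.783).

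The interaction is the effect of dexamethasone in TGF-β1 cells less its effect in cells given no TGF-β1. No matrix gene passed its edgeR test, where 0.884% of all genes did. At an unadjusted p under 0.05 there was 1 of 41, HAS2 (1.59, SE 0.45, adjusted p = 0.184), against 961 of all 13469 genes. DESeq2 called 0 matrix genes, against 209 of all genes in its own set. With the replicate block 2 genes passed, LAMA5 (0.47, SE 0.11, adjusted p = 0.0158) and HAS2 (1.62, SE 0.41, adjusted p = 0.0230), against 4.78% of all genes. ELN passed with all libraries numbered 2 left out (adjusted p = 0.00682, with the sign of the difference negative). Precision differed between genes: the SE was 1.39 for ELN and 1.11 for FBLN5, against 0.12 for HSPG2.

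With both agents against control, 26 of the 41 rose and 6 fell, 78.0% in all, where 36.6% of all genes passed, 18.5% upwards and 18.1% downwards. LAMB1 and FBLN1, which rose with each agent alone, rose by 1.03 (SE 0.15, adjusted p = 0.000129) and 1.15 (SE 0.12, adjusted p = 6.96e-06), and SDC4 and HAS3, which fell with each, fell by 1.08 (SE 0.11, adjusted p = 3.64e-06) and 1.69 (SE 0.25, adjusted p = 0.000122). HSPG2, which the agents moved in opposite directions, fell by 0.51 (SE 0.08, adjusted p = 0.000236), and GPC1 differed by 0.13 (SE 0.13, adjusted p = 0.452). LAMB3 differed by 0.40 (SE 0.15, adjusted p = 0.0494), with overlapping libraries, 119, 95.2 and 90.7 CPM with both agents against 72.9, 96.1 and 62.5 CPM in control cells. That call was lost without any one of 10 libraries, every one but control 2 and both agents 3 (adjusted p = 0.0510 to 0.212), on scaling by library size (0.14, adjusted p = 0.440) and with DESeq2's size factors in edgeR (adjusted p = 0.0524). ELN reached 105 ± 55.9 CPM with both agents, against 0.884 ± 0.0976 CPM in control cells, and differed by 6.83 (SE 1.02, adjusted p = 0.000633). Calls that hung on 1 library were also those of THBS2 (control 2 or 3, both agents 3; adjusted p = 0.0506 to 0.0629), THBS3 (control 1 or 3; 0.0546 and 0.0587), MATN2 (control 1 or 3, both agents 1 or 2; 0.0695 to 0.112) and HAS2 (control 3, both agents 3; 0.107 and 0.124), while EMILIN1 passed without control 2 (0.0491) and NID2 without control 1 or both agents 2 (0.0467 and 0.0196). Scaling by library size ended the calls of FBN1, CD44, THBS3 and HAS2 (adjusted p = 0.140, 0.0504, 0.282 and 0.0578) and made one for AGRN (-0.40, adjusted p = 0.00026). With the replicate block, under which 53.1% of all genes passed, ECM1 (0.37), EMILIN1 (0.61) and NID2 (0.54) passed upwards and AGRN (-0.14) downwards. With 1 replicate number left out of all groups, the calls of CD44, FBN1, HAS2, LAMA5, LAMB3, MATN2, NID1, THBS2 and THBS3 were each lost at least once (adjusted p = 0.054 to 0.41).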

How the data were processed

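The authors deposited raw counts of reads per gene, made with featureCounts on genome build hg38, per the submitters' processing notes. Of the aligner, annotation release and strand setting, each is not given in the sources used here. Per the labels, polyadenylated RNA was selected; the kit named there is a non-directional one. Columns were matched to the 12 libraries by the label's own code, and 6 columns without a label were not used. Gene identifiers were matched to RefSeq (GRCh38.p14): 27745 matched and 650 did not, and the matched ones held 99.943% of counts. Exon lengths came from protein-coding transcripts of GENCODE release 29 (basic set).

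A single model with 4 group means took in the 12 libraries (edgeR 4.0.16, limma 3.58.1, R 4.3.3): filterByExpr with a minimum count of 10, TMM scaling, the robust quasi-likelihood test and Benjamini-Hochberg adjustment over 13469 genes at 0.05. The SE is the size of the log2 difference over the square root of its F statistic. The code was tested on simulated data. Alternatives were DESeq2 1.42.0, its size factors in edgeR, library size only, no filter on low counts, the replicate number as a block, and leaving out each library or each replicate number. Summaries used Python 3.11.15 and pandas 2.3.3, and plots matplotlib 3.10.9.

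Whether replicate numbers pair the libraries was checked on deviations from the group means: the 18 same-number pairs correlated at 0.25 to 0.541, and pairs with different numbers at -0.422 to 0.042. The labels number the libraries but name no shared batch. Between replicates, chi-square over its degrees of freedom was 6 to 18.2, above sampling noise, so no library was counted as a copy of another. P-values measure the spread between libraries.

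The members and lists were chosen with earlier results of these data known. Values in every library are given for genes past a dexamethasone or interaction test, the 10 with the largest TGF-β1 difference and those that fell with TGF-β1; of each further list up to 3 genes per direction are named, taking the largest differences that passed, where the mean log2 CPM was 1 or more and the groups did not overlap. Counting intervals cover counting error only. Some genes that this rule names are not reported here. Protein sequences were not used here.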

Additional observations from a re-analysis of the deposited data

Results flagged for a closer look

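For LAMA5 the difference in dexamethasone effect between cells with and without TGF-β1 passed its edgeR test with the replicate block only (0.47 on the log2 scale, adjusted p = 0.0158). LAMA5 and HAS2 were the 2 of 41 matrix genes that passed with the block, where 4.78% of all genes did. Matrix genes thus passed at about the share of all genes. Without the block the adjusted p was 0.994. The libraries had 269, 435 and 268 CPM with both agents and 219, 245 and 194 CPM with TGF-β1, 642, 911 and 567 CPM with dexamethasone and 619, 805 and 588 CPM in control cells. Dexamethasone and control libraries overlapped, and replicate 2 was the highest in each of the 4 groups.

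For HAS2 the same difference was 1.62 with the replicate block (adjusted p = 0.0230; 0.184 without the block). The libraries had 4.54, 4.52 and 6.39 CPM with both agents and 3.85, 1.70 and 3.65 CPM with TGF-β1, 1.63, 2.08 and 1.15 CPM with dexamethasone and 3.34, 2.64 and 2.37 CPM in control cells. It was the one matrix gene in which dexamethasone libraries were all above those without it in one background and all below them in the other. How many of all genes have this pattern was not counted, so it is not known to be unusual. Its level was low throughout, and reads of the antisense gene HAS2-AS1 (0.256 CPM on average) cannot be told apart by strand.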

How the results depend on the processing

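No called value of a matrix gene changed sign under any alternative run. With DESeq2, its size factors, library size only or no filter, the counts of matrix genes called stayed within 1.5 times those reported. Library size alone changed the counts over all genes to 1251 up and 4332 down for TGF-β1 against control, 1325 up and 4472 down for both agents against dexamethasone, and 1416 up and 5342 down for both agents against control, with medians of all genes at -0.217, -0.227 and -0.271. DESeq2 called 131 genes upwards in the interaction, against 65.

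With the replicate number as a block, dexamethasone against control had 7 matrix genes up and 7 down, both agents against TGF-β1 7 up and 4 down, and the interaction 2 up. Over all genes the block gave 3308 up and 3433 down for TGF-β1 against control, 1461 up and 1535 down for dexamethasone against control, 1275 up and 1078 down for both agents against TGF-β1, 3229 up and 3498 down for both agents against dexamethasone, and 406 up and 238 down for the interaction. It changed no call of a matrix gene other than those given beside the results. The fits differ in the spread they assume, with a biological coefficient of variation of 0.0577 with the block and 0.122 without it.

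Leaving out single libraries or a whole replicate number gave 16 to 25 matrix genes up and 3 to 7 down for TGF-β1 against control, 0 to 6 up and 2 to 4 down for dexamethasone against control, 1 to 8 up and 0 to 2 down for both agents against TGF-β1, 19 to 26 up and 1 to 6 down for both agents against dexamethasone, 20 to 26 up and 4 to 6 down for both agents against control, and 0 up and 0 to 1 down for the interaction. Over all genes the ranges were 1239 to 2196 up and 1171 to 2269 down, 399 to 786 up and 294 to 743 down, 336 to 709 up and 121 to 394 down, 1232 to 2197 up and 970 to 2237 down, 1521 to 2558 up and 1251 to 2484 down, and 0 to 105 up and 0 to 66 down, for the comparisons in the same sequence. Each of these fits also had fewer libraries, and the cause of the shifts was not tested. Depth limits DCN, LUM, POSTN and MFAP5, and genes of a few CPM such as HAS2, HAS3, SDC2 and EMILIN1.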

Other observations

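Replicate 2 was the lowest library for 23 of the 41 tested matrix genes with both agents and 27 with TGF-β1, against 15 with dexamethasone and 19 in control cells. For replicate 3 the numbers were 13, 11, 24 and 19 in the same order of groups. Such counts were not made over all genes. In the TGF-β1 group replicate 2 stood several-fold below the others for elastic-fibre and thrombospondin genes, picked after their values were seen: 3.25 CPM for ELN against 38.5 and 46.4, 11.0 CPM for FBLN5 against 68.9 and 85.7, and 53.5 CPM for THBS2 against 168 and 198. Replicate 2 was not uniformly low, since it was the highest TGF-β1 library for 7 genes, among them VCAN with 553 CPM against 349 and 315. The fibroblast marker FAP had 26.7 CPM in that library against 105 and 131 CPM in the other TGF-β1 libraries, and its part in these values was not tested.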
